A study of Harpegnathos saltator with 18 samples.

Results

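The non-visual brain and the fat body of workers of the ant Harpegnathos saltator were compared across the transcriptome, a neural against a metabolic tissue of the same caste. Non-visual brain is the submitters' name for a brain part sampled beside the optic lobe. The comparison uses 6 of the 18 polyadenylated RNA libraries, 3 per tissue. The other 12 libraries are 3 each from optic lobe, retina and antenna of workers and from ovary of gamergates, the workers that mate and lay eggs. All ants were kept in the same facility under a light and dark cycle and fed live crickets, with no treatment or genotype named, and age is not given. Whether animals were pooled, and whether replicates came from separate animals, is not stated, so p-values measure the spread between libraries only, which may be technical. Values are RPKM, the reads in a gene model per kilobase of its length and per M (mega) reads of the library. Of 20755 rows of the deposited table, 10268 stood at 1 RPKM or more in at least 3 of the 6 libraries and were tested. Another 5315 rows lay above 0 but under that filter, and 5172 were listed at 0 in all 6 libraries. No identifier of the table (0 of 20755) was found among the 14329 RefSeq genes of the species, so genes are described by groups and by 4 identifiers, without names, positions or sequences, and the tissues could not be checked against marker genes.

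The insect fat body stores lipid, glycogen and amino acids and secretes most of the proteins of the haemolymph, so that a few secretory products can dominate its RNA. It combines roles that vertebrates divide between liver and adipose tissue, and it makes yolk precursors and antimicrobial peptides. Brain tissue holds many kinds of neurons and glia, each with its own channels, receptors and neuropeptides.

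The totals behind the RPKM, read back from the steps of the low values, were 11.3 to 15.2 M reads in non-visual brain and 8.2 to 16.2 M in fat body. Recovered reads in gene models made up 30.88 to 35.66% of these totals in brain and 47.65 to 56.09% in fat body. The RPKM summed to 259092 to 326795 in the brain libraries and to 381104 to 447555 in the fat body libraries. For a model of 1000 bases, 3 reads equalled 0.2 to 0.26 RPKM in the brain libraries and 0.18 to 0.37 RPKM in the fat body libraries, a floor that covers counting error only. Each library correlated better with its own tissue (mean Pearson r of 0.826 to 0.88 across the tested genes, which are not independent replicates) than with the other tissue (0.517 to 0.546). Non-visual brain replicate 1 stood apart from the other brain libraries: 130 genes at 5 RPKM or more in both of the others were listed at 0 there, against 1 gene each for replicates 2 and 3. Fat body replicate 3, the shallowest of the 6, had 114 such genes, against 8 and 9 for replicates 1 and 2.

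The transcript pool of the fat body was concentrated in few genes and that of the brain was spread over many. The 10 highest rows took 31.4%, 24.1% and 30.1% of the RPKM of the fat body libraries, and 9.3%, 6.0% and 5.5% in non-visual brain. All fat body libraries lay above all brain libraries. The means were 28.5% ± 3.89 in fat body and 6.93% ± 2.06 in brain (SD, n = 3 each; two-sided exact permutation test, p = 0.1, the smallest that 3 against 3 can give). To reach 50% of the RPKM took 52, 90 and 49 rows in the fat body libraries, but 246, 576 and 727 rows in non-visual brain. More rows reached 1 RPKM in brain, with 9535, 11374 and 11476 against 8167, 8530 and 7016 in fat body (means 10800 ± 1090 and 7904 ± 790, n = 3 each; exact permutation p = 0.1). With reads thinned to the depth of the shallowest library the brain libraries held 9531, 11355 and 11452 such rows and the fat body libraries 8122, 8489 and 7015, a difference of means of 2904 rows against 2891 as deposited. The tissues overlapped in rows above 0, with 10337, 13838 and 13750 in brain and 10486, 10419 and 8112 in fat body (exact permutation p = 0.3).

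**Figure D1:**
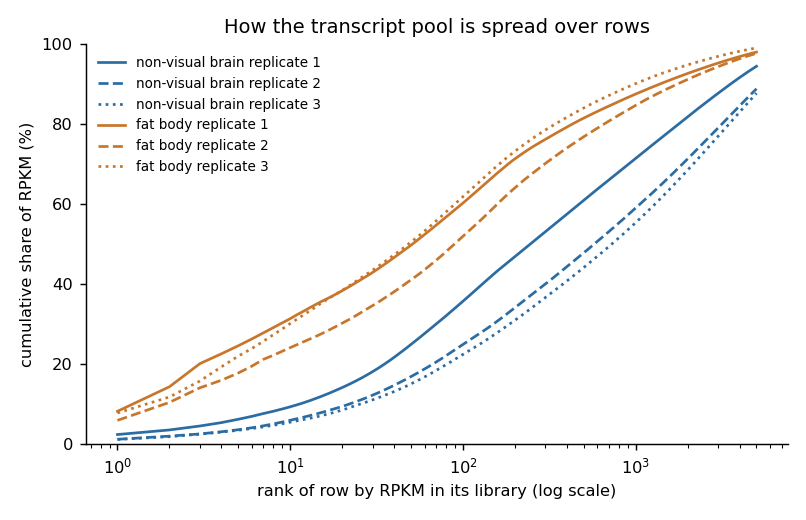
Cumulative share of RPKM (percent, y axis) against the rank of the row by RPKM within its library (x axis, log scale), 1 line per library, blue for non-visual brain and orange for fat body. The fat body lines reach 50% after 49 to 90 rows and the brain lines after 246 to 727 rows.

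Individual rows show what carries this concentration. The row with the highest mean level in fat body stood at 31250, 24510 and 34810 RPKM there and at 189.5, 95.8 and 449 RPKM in non-visual brain. It alone took 8.2%, 5.93% and 7.78% of the RPKM of the fat body libraries. The row of rank 3 in fat body has the longest model of the leading 10, with a coding length of 6798 bases. It stood at 23390, 18580 and 6021 RPKM in fat body, lowest in replicate 3, and at 160.5, 20.3 and 32.2 RPKM in brain. All 10 leading fat body rows passed the test for a higher level in fat body, with log2 differences (brain minus fat body) from -3.42 to -9.99. In non-visual brain the leading row stood at 7817, 3115 and 3182 RPKM, and at 2689, 2448 and 5148 RPKM in fat body. The 2 tissues overlapped for it (log2 difference 0.4, SE 0.54, adjusted p = 0.56, limma). Of the 10 leading brain rows, 6 were higher in brain, 0 were higher in fat body and 4 did not pass the test. Both sets of 10 were ranked by the libraries under test, so these counts are no separate evidence. Among the 100 most abundant tested genes of fat body, 58 were higher in fat body and 0 in brain. Among the 100 of non-visual brain, 30 were higher in brain and 12 in fat body. The brain row of rank 3 stood at 3230, 1430 and 1176 RPKM in brain and at 13.6, 4.54 and 19.2 RPKM in fat body, with no overlap (log2 difference 7.22, SE 0.56, adjusted p = 5e-05, limma).

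Across all genes tested, more genes were higher in non-visual brain than in fat body as deposited, and the called genes of fat body were more abundant in their tissue than those of brain in theirs. Levels were compared as log2(RPKM + 1) with limma on the 6 libraries. A gene was called at a Benjamini-Hochberg adjusted p under 0.05 over all 10268 genes and a difference of at least 2-fold. By this rule 3819 genes were higher in non-visual brain (37.2% of the genes tested) and 633 were higher in fat body (6.16%). Of the called genes, 3757 (98.4%) and 622 (98.3%) had no overlap between the libraries of both tissues, against 48.7% and 7.71% of all genes tested that were without overlap in that direction. The median difference among brain-higher genes was 2.09 on the log2(RPKM + 1) scale, and 334 of them (8.7%) differed by 4 or more on it, a 16-fold ratio of RPKM + 1. Among fat-body-higher genes the median was -2.38, and 144 (22.7%) reached that size. These sizes depend on the pseudocount, which compresses the differences of low genes. With a pseudocount of 0.1 the medians of the same genes were 3.29 and -3.11, and 1396 (36.6%) and 220 (34.8%) reached 16-fold. The largest differences were then 11.35 for brain and -11.34 for fat body. In bulk tissue, fewer cells of a type and less RNA per cell cannot be told apart.

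**Figure D2:**
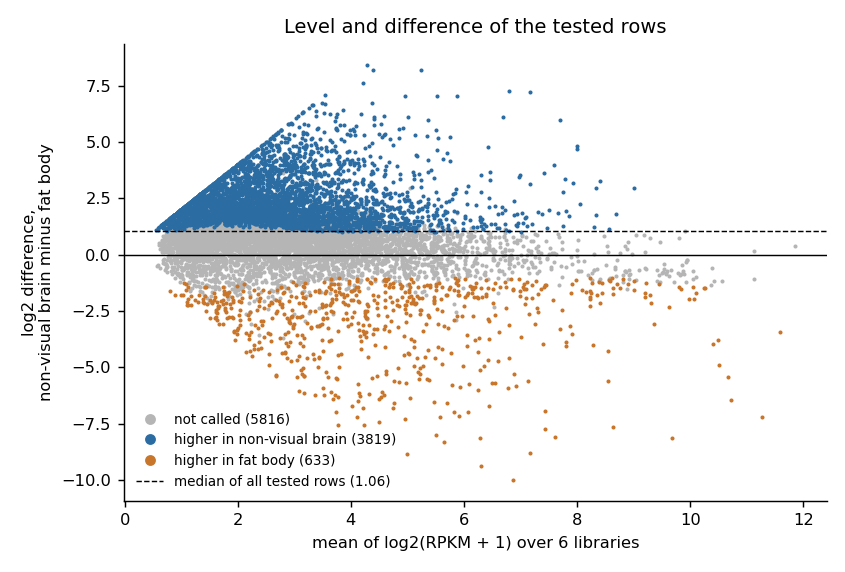
Each point is 1 of 10268 tested genes, with the mean of log2(RPKM + 1) over the 6 libraries on the x axis and the log2 difference, non-visual brain minus fat body, on the y axis. Blue points are the 3819 genes higher in brain, orange points the 633 higher in fat body and grey points those not called, and the dashed line marks the median of all genes at 1.06.

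The balance of directions rests on the scale. As deposited, the median gene lay 1.06 higher in non-visual brain on the log2 scale, and 80.2% of the tested genes had a difference above 0. Relative to that median gene, 1975 of the 3819 brain-higher genes and all 633 fat-body-higher genes differed by 2-fold or more. Brain-higher genes were 85.8% of all calls as deposited, and 92.3% (5517 higher and 459 lower genes) with libraries rescaled to the same RPKM sum. The share was 56.8% (1561 and 1188) with trimmed-mean factors, which align the middle of the distribution of ratios, and 52.5% (1279 and 1156) with quantile normalization. Under all 4 scalings, 1073 genes were called higher in brain and 450 higher in fat body, which is 28.1% and 71.1% of the genes called as deposited. The brain count also depended on single libraries, with 2313 genes without non-visual brain replicate 2 and 2277 without replicate 3. Without replicate 1, the brain library that stands apart, the counts were 3714 and 601, and without fat body replicate 3 they were 3198 and 646.

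**Figure D3:**
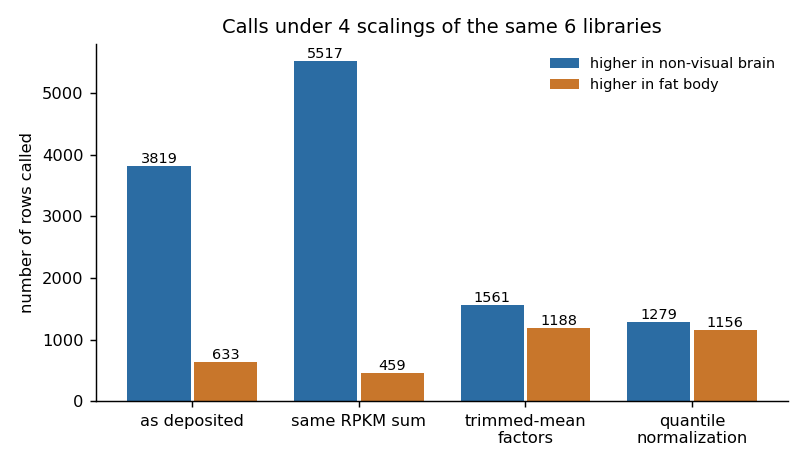
Number of genes called higher in non-visual brain (blue bars) and in fat body (orange bars) by the same test on the 6 libraries under 4 scalings. The brain bar goes from 3819 as deposited to 5517, 1561 and 1279, and the fat body bar from 633 to 459, 1188 and 1156.

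Shared levels could be shown for few genes. The 95% interval of the difference lay inside 2-fold in either direction for 143 genes (1.39%) as deposited, for 310 with trimmed-mean factors and for 587 with quantile normalization. Among the 100 most abundant tested genes of each tissue, 50 were in both lists. Of these 50, 0 were called higher in brain, 12 were higher in fat body and 38 did not pass the test. Over all tested genes 37.2% and 6.16% were called in these directions. Among genes with a mean of 100 RPKM or more over the 6 libraries it was 19.0% and 39.3%. A place in both lists asks for a high level in both tissues, so the counts are no separate evidence.

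As deposited, the direction of the calls changed with abundance. Abundance here is the mean of the same 6 libraries, so a gene can enter the highest group through 1 tissue. Among the 458 genes with a mean of 100 RPKM or more over the 6 libraries, 180 (39.3%) were higher in fat body and 87 (19.0%) in brain, with a median difference of -0.78. Among the 4371 genes from 5 to 20 RPKM, 156 (3.6%) were higher in fat body and 1871 (42.8%) in brain, with a median of 1.22. The 633 fat-body-higher genes took 61.4%, 56.5% and 60.4% of the RPKM of the fat body libraries and 9.7%, 8.3% and 8.3% in non-visual brain. The 3819 brain-higher genes took 38.5%, 40.4% and 43.6% of the RPKM of the brain libraries and 4.3%, 5.1% and 3.6% in fat body. These shares describe genes chosen by the same libraries. The median fat-body-higher gene had a mean of 61.7 RPKM in fat body and 6.64 in brain, and the median brain-higher gene 13 RPKM in brain and 1.58 in fat body.

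On the log2(RPKM + 1) scale, HSALG005445.2 led the brain-higher genes without overlap. It stood at 772.4, 243.1 and 251.7 RPKM in brain and at 0.163, 0 and 0 RPKM in fat body, where 1 read was recovered in all. The log2 difference was 8.43 (SE 0.48, adjusted p = 2.32e-05, limma). Its mean brain level was 6890 times the pooled fat body level, with a 95% Poisson interval of 1240 to 272000 for that 1 read. The interval takes reads as independent and leaves out the spread between libraries, so it may be too narrow for the ratio. In optic lobe the gene stood at 2.29 ± 3.33 RPKM (n = 3), with all 3 libraries below all 3 of non-visual brain. HSALG013198.2 stood at 546.7, 453.4 and 189.2 RPKM in brain and at 0.86, 0 and 0 RPKM in fat body. The log2 difference was 8.2 (SE 0.49, adjusted p = 2.32e-05, limma). All 8 of its fat body reads were in replicate 1. Its optic lobe level was 3.45 ± 2.25 RPKM (n = 3).

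HSALG002043.2 led the fat-body-higher genes on the same scale. It stood at 5868, 7009 and 1268 RPKM in fat body and at 19.2, 1.44 and 0 RPKM in non-visual brain. The log2 difference was -9.99 (SE 1.04, adjusted p = 0.000189, limma). Its lowest fat body value was in replicate 3 and its highest brain value in replicate 1. It also stood at 254.6, 211.5 and 101.3 RPKM in retina and at 0.332 ± 0.186 RPKM in ovary (n = 3). HSALG011327.2 stood at 1269, 1926 and 3415 RPKM in fat body and at 0, 1.78 and 9.52 RPKM in brain. The log2 difference was -9.36 (SE 0.76, adjusted p = 6.48e-05, limma). Here replicate 3 was the highest of the fat body libraries, where it was the lowest for HSALG002043.2. Both genes had their highest antenna value in replicate 3, with 694.4 and 135.1 RPKM. Antenna replicates 1 and 2 held 38.4 and 60.1 RPKM of the former and 9.64 and 37.3 RPKM of the latter.

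**Figure D4:**
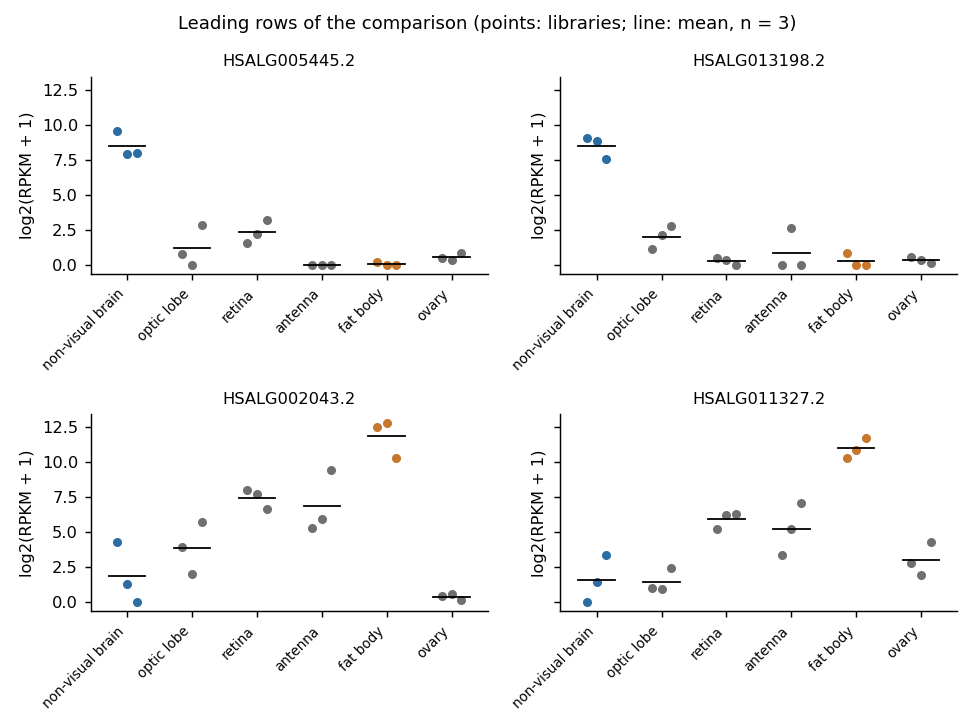
Level as log2(RPKM + 1) (y axis) of the 4 named genes in all 18 libraries, by tissue (x axis), with points for libraries and lines for the mean of 3. The upper genes are high in non-visual brain and near 0 in fat body, and the lower genes are highest in fat body with intermediate values in retina and antenna.

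Absence of reads was mostly on the fat body side. Of the tested genes, 400 were listed at 0 in all 3 fat body libraries and 9 in all 3 brain libraries. Each of them passed the filter through 1 tissue only, so it had to differ and its call is no separate evidence. The 400 genes had a median brain level of 5.7 RPKM, and the highest reached 135 RPKM. With 3 reads over the fat body libraries together as the floor, the median gene was at least 43.5-fold lower in fat body. In the optic lobe, 362 of the 400 stood at a mean of 1 RPKM or more, and in ovary 111, where 96.1% and 85.8% of all tested genes did. Of the 9 genes without a read in non-visual brain, 0 reached 1 RPKM in optic lobe and 5 did in ovary. Their median fat body level was 38.7 RPKM.

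The called genes were then followed in libraries that the comparison did not use. Of the 3819 brain-higher genes, 69.7% had their highest mean log2 level among optic lobe, retina, antenna and ovary in the optic lobe, against 48.8% of all tested genes. Of the fat-body-higher genes this was 12.3%, and 47.2% were highest in ovary, 21.8% in retina and 18.6% in antenna. Over all tested genes 36.7%, 6.7% and 7.8% were highest in these tissues, and over the 5816 genes not called 46.5%, 6.8% and 7.6%, so the share in ovary was that of genes not called. The median brain-higher gene stood at 17, 14.4 and 12.4 RPKM in the optic lobe libraries and at 4.06, 3.78 and 2.59 RPKM in retina. The median fat-body-higher gene stood at 5.99, 4.85 and 7.92 RPKM in optic lobe and at 18.1, 13.6 and 15.8 RPKM in ovary. In retina it stood at 10.4, 13.3 and 6.6 RPKM. The medians of all tested genes were 12.8, 9.99 and 9.87 RPKM in optic lobe and 12.4, 5.19 and 7.32 RPKM in ovary. In retina they were 4.66, 4.59 and 2.9 RPKM. Antenna replicate 3 stood above the other antenna libraries for both groups, at 6.62 and 21.9 RPKM, as it did for all tested genes, whose median was 7.27 RPKM there against 2.65 and 2.86 RPKM in replicates 1 and 2.

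**Figure D5:**
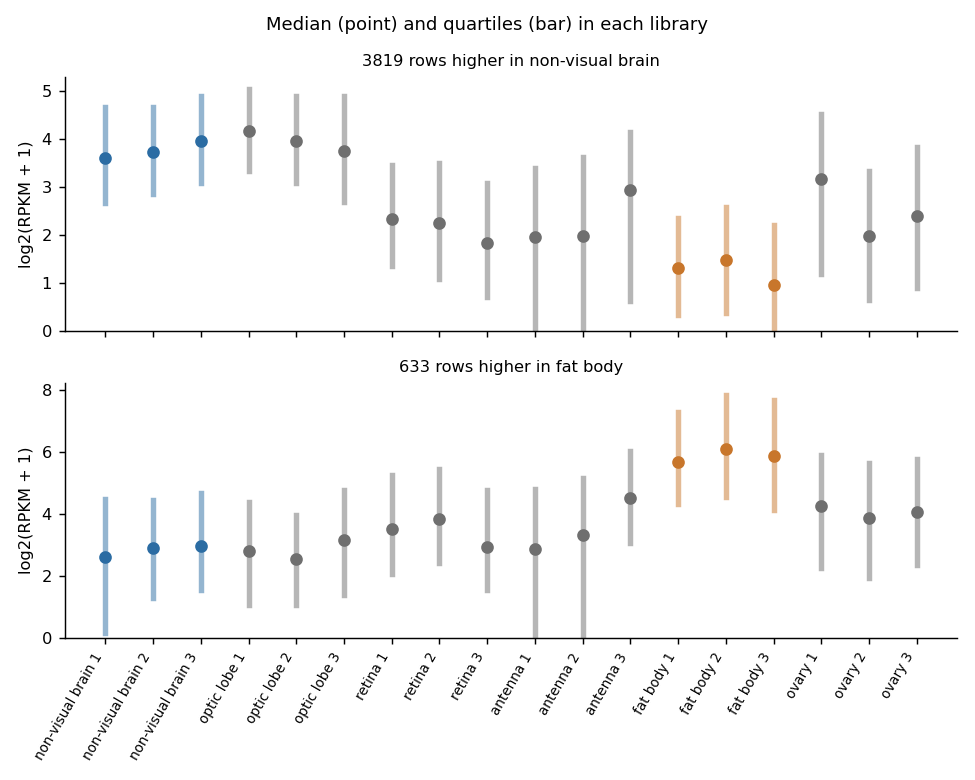
Median (point) and quartiles (bar) of log2(RPKM + 1) in each of 18 libraries for the 3819 genes higher in non-visual brain (upper panel) and the 633 higher in fat body (lower panel). The optic lobe libraries lie at the level of non-visual brain in the upper panel. In the lower panel the medians of several libraries lie between brain and fat body. These are all ovary libraries, retina replicates 1 and 2, antenna replicates 2 and 3 and optic lobe replicate 3.

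A test of optic lobe against ovary, which shares no library with the comparison of non-visual brain and fat body, split the groups in the same way. By the same rule, 3034 of 11513 genes (26.4%) were higher in optic lobe and 1699 (14.8%) in ovary. Tissue and caste cannot be told apart in that test, since the ovaries came from gamergates. Of the 3670 brain-higher genes tested in both comparisons, 1733 (47.2%) were higher in optic lobe and 130 (3.5%) in ovary. Of the 572 fat-body-higher genes, 36 (6.3%) were higher in optic lobe and 224 (39.2%) in ovary. Over all 9862 genes tested in both, the shares were 25.8% and 11.3%. The median optic lobe minus ovary difference was 1.21 for brain-higher genes, -1.06 for fat-body-higher genes and 0.25 for all. Among the 1039 brain-higher genes that held under all 4 scalings, 827 (79.6%) were higher in optic lobe and 16 in ovary. Of the 395 such fat-body-higher genes, 188 (47.6%) were higher in ovary and 23 in optic lobe.

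Some abundant ovary genes were among the fat-body-higher genes. The 3 rows with the highest mean level in ovary were all called higher in fat body. The leading one made up 3.6 to 31.4% of ovary RPKM and stood at 42.5, 13.2 and 41.1 RPKM in fat body and at 12.8, 1.07 and 4.27 RPKM in non-visual brain. The next stood at 4020 RPKM in fat body replicate 1, at 50.9 and 113.4 RPKM in the other fat body libraries and at 0 to 28.6 RPKM in brain. The fat-body-higher genes took 28.9%, 56.7% and 35.0% of the RPKM in ovary, and 23.1%, 25.3% and 31.4% without the leading ovary row. A list of 57 rows restricted to ovary among the 4 tissues outside the comparison summed to 4880, 179 and 489 RPKM in the fat body libraries and to 21.4, 27.8 and 73.6 RPKM in the brain libraries. Single rows carried much of these sums. The largest stood at 4020, 66.7 and 250 RPKM in the fat body libraries and at 12.8, 6.55 and 28.6 RPKM in the brain libraries. The median row of the list was at 0 in fat body replicates 2 and 3 and in brain replicates 1 and 2. Of the 57 rows, 13 were tested, 7 were called higher in fat body and 0 in brain, against 6.16% and 37.2% of all genes tested. The list asks for optic lobe levels far below those in ovary. In optic lobe 98.4% of the brain-higher genes stood at a mean of 1 RPKM or more. Few brain-higher calls were therefore likely from how the list was made, and these counts are no separate evidence. The part of such rows in the overlap with ovary was not tested.

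Loci with XLOC identifiers, 438 rows beside the 20317 HSALG gene models, followed the whole table. Of the 286 tested, 120 (42.0%) were higher in non-visual brain and 13 (4.5%) in fat body, close to the 37.2% and 6.16% of all genes. The brain-higher loci had a median of 12.4 RPKM in brain and 1.55 RPKM in fat body. The 13 fat-body-higher loci had a median of 48.1 RPKM in fat body and 2.08 RPKM in brain. All 120 brain-higher loci reached a mean of 1 RPKM in optic lobe, 93 did in retina and 76 in ovary, where 96.1%, 83.9% and 85.8% of all tested genes did. Among all 3819 brain-higher genes the shares were 98.4%, 80.1% and 75.7%.

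Brain-higher HSALG genes had longer models and fat-body-higher genes shorter models, by their medians, as deposited. The coding length read back from the RPKM steps had a median of 1263 bases in the 3699 brain-higher models, 973.5 bases in the 620 fat-body-higher models and 1098 bases over all tested models. The share called higher in brain was 45.4% among 1860 models of 2400 bases or more and 30.9% among 709 models under 300 bases. For fat body the shares were 3.9% and 5.8%. In the smaller group called under all 4 scalings the order for brain was the opposite, with 10.5% of the longest and 13.0% of the shortest models. For fat body it was the same, with 3.1% and 4.1%. The medians in that group were 1060.5 bases for brain and 1041 for fat body.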

How the data were processed

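Polyadenylated RNA of 6 tissues was sequenced without strand after TRIzol extraction, DNase treatment and random-hexamer priming, per the labels' protocols, so a gene and an overlapping antisense gene cannot be told apart. The deposited values are RPKM computed by the authors, with 1 column per library. STAR 2.5.0b and DESeq2 are named in the submitters' processing notes without a role, while build, annotation, read counting and the treatment of reads shared by near-identical copies were not given in the sources used here. Rows at 1 RPKM or more in at least 3 of the 6 libraries entered limma 3.58.1 as log2(RPKM + 1) (R 4.3.3, mean-variance trend, 2 tissues in the fit, two-sided, Benjamini-Hochberg adjustment over all 10268 rows). Single values per library were compared with exact permutation tests (scipy 1.17.1). Coding lengths, totals and reads were recovered from RPKM steps: for 18567 of 18589 rows above 0 (99.88%) a length, sought first among multiples of 3, gave whole reads within the rounding of 6 printed digits plus a relative 1.5e-06. Recovery and limma were tested on simulated data. Of low counts (1 to 10 reads), 57.1 to 67.5% were even in the 6 libraries, so reads are not independent observations. The named genes are the 2 per direction with the largest called difference and no overlap between tissues. The planned gene lists and cell type markers need gene names and were not run. Members, lists and groups were chosen with earlier results of these data known. The list restricted to ovary (57 rows) holds rows at a mean of 30 RPKM or more and 30 times above every library of optic lobe, retina and antenna. Alternatives covered pseudocount, filter, scaling, fit, voom, replicate number and single libraries.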

Additional observations from a re-analysis of the deposited data

How the results depend on the processing

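The 4 named genes kept their direction and an adjusted p under 0.05 (limma) under all 17 alternatives each, with largest adjusted p-values from 0.00079 to 0.00342. The gap in the 10 highest rows and in rows at 1 RPKM kept its direction under every alternative run on it. These were the 100 highest rows, 5 RPKM as the limit, thinned reads and each library left out. Trimmed-mean factors and quantile normalization were not applied to these gaps, so their dependence on scaling was not tested. Counts of brain-higher and fat-body-higher genes moved by over 1.5 times under 2 scalings. Trimmed-mean factors gave 1561 and 1188 and quantile normalization 1279 and 1156. Leaving out single libraries gave 2277 to 3714 and 456 to 646. The brain-higher count moved by over 1.5 times here too, without non-visual brain replicate 2 (2313) or replicate 3 (2277). Brain-higher genes that were higher in optic lobe than in ovary went from 1733 to 1038 (71.7% of those tested in both) with trimmed-mean factors and 923 (74.1%) with quantile normalization. Fat-body-higher genes that were higher in ovary went from 224 to 148 (36.6%) with the same RPKM sum, 503 (44.9%) with trimmed-mean factors and 532 (49.8%) with quantile normalization. Without single libraries these counts ran from 1314 to 1907 and from 172 to 283. The cause of these moves was not tested. Other pseudocounts, filters, larger fits and voom stayed within 1.5 times (2580 to 4252 and 513 to 680). The replicate block gave 3394 and 607 genes. Replicate numbers did not pair the libraries (correlations of deviations -0.001, 0.071 and -0.028). Depth limits low genes: in a model of 1000 bases, 3 reads equalled 0.18 to 0.37 RPKM.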

Other observations

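Called HSALG genes often had a called gene of the next higher or lower identifier number. No label says what the order of the numbers stands for. Of the 501 fat-body-higher genes with a tested neighbour in number, 134 (26.7%) had one that was also higher in fat body, against 9.1% of all 8053 genes with a tested neighbour. Among those that differed by 4 or more on the log2(RPKM + 1) scale it was 40 of 108 (37.0%). For brain-higher genes it was 1601 of 2920 (54.8%), against 45.8% of all, and 174 of 253 (68.8%) among those that differed by 4 or more. Reads shared between near-identical copies were not examined.

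Replicates differed in the levels of the called genes and in those of all tested genes. Of the 3819 brain-higher genes, 1831 had their lowest brain value in replicate 1, 1229 in replicate 2 and 759 in replicate 3, and 1946 had their highest in replicate 3. Of the 633 fat-body-higher genes, 285 had their lowest fat body value in replicate 1, 126 in replicate 2 and 222 in replicate 3. Such counts over all tested genes were not made. The median of all tested genes was 7.38, 9.14 and 10.6 RPKM in brain replicates 1 to 3, lowest and highest in the same replicates. In fat body it was 3.22, 4.23 and 2.64 RPKM, lowest in replicate 3, whereas the fat-body-higher genes were lowest most often in replicate 1. Fat body replicate 2 had the highest median, and it most often held the highest value of the fat-body-higher genes (294). The median SD of log2(RPKM + 1) per gene was 0.49 in non-visual brain and 0.58 in fat body (n = 3 each).

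A list of 10 rows restricted to antenna among the 4 tissues outside the comparison summed to 35.3, 11.8 and 9.46 RPKM in the brain libraries and to 1.71, 5.79 and 4.69 RPKM in fat body. A single row gave 23.4 of the 35.3 RPKM in brain replicate 1. HSALG models whose identifier ends in 2 after the point passed the filter more often (72.6% of 7308) than those ending in 1 (36.0% of 13009). No label says what the ending means. Among tested models the shares higher in fat body were 6.7% and 5.6%.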
